A study of Mus musculus with 18 samples.

Results

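The genes described here are the core of the hedgehog and PTHrP pathways of the growth plate, taken as 9 listed symbols: Ihh, Hhip, Ptch1, Smo, Gli1, Gli2, Gli3, Pthlh and Pth1r. All 9 were found among the 20325 genes of each deposited table, and the rule uses no measured value. Their RNA was measured in 18 RNA-seq libraries of C3H10T1/2, an established line of multipotent mesenchymal cells from C3H mouse embryos, and of tumors grown from it. Histone H3 lysine 36 (H3K36) is methylated by enzymes that include NSD1, NSD2 and SETD2, and in the K36M mutants this lysine is replaced by methionine. The cultured groups were cells with a stable FLAG-HA-tagged transgene of wild-type H3.3 (n = 2), of H3.3K36M (n = 2) or of H3.1K36M (n = 2), and parental cells given scramble siRNA (control siRNA, n = 3) or siRNAs against Nsd1, Nsd2 and Setd2 together (HMT siRNA, n = 3). All cultured cells were at passage 10 to 15. The tumors (n = 6) formed after 2000000 H3.3K36M cells with Matrigel were placed under the skin of both flanks of athymic female SCID mice aged 6 to 8 weeks, and they were taken 5 to 6 weeks later. The labels name 1 line per transgene and no wild-type H3.1 line, and they do not say which tumors came from the same mouse or whether cultured replicates were separate cultures. Each p-value here reflects only how much these libraries vary, possibly for technical reasons.

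In the growth plate, prehypertrophic chondrocytes release Indian hedgehog (Ihh), and cells nearer the joint answer with PTHrP (Pthlh), which acts through its receptor Pth1r to hold chondrocytes in proliferation and delay hypertrophy. Hedgehog ligands bind the receptor Ptch1, which otherwise restrains Smo. Active Smo then changes the balance of the transcription factors Gli2 and Gli3 from repression to activation, and Gli1, Ptch1 and the ligand trap Hhip are themselves classical targets of the pathway. Smo, Ptch1 and the Gli factors are also present in mesenchymal progenitors outside cartilage.

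The promoters of Ptch1, Pth1r and Pthlh are shown because these 3 genes had the largest falls of the 9 in H3.3K36M cells against wild-type cells, and because in tumors Ptch1 had the largest fall and Pthlh the largest rise. Each run is the 250 bases just before an annotated start, read 5′ to 3′ on the gene's strand, from RefSeq (GRCm38.p6), with CpG dinucleotides, the sites of DNA methylation in mammals, in capitals. The first is Ptch1 at chr13:63565736-63565985 on the minus strand, the second Pthlh at chr6:147264014-147264263 on the minus strand, and the other two are starts of Pth1r on the minus strand at chr9:110742611-110742860 and chr9:110747146-110747395.
Ptch1: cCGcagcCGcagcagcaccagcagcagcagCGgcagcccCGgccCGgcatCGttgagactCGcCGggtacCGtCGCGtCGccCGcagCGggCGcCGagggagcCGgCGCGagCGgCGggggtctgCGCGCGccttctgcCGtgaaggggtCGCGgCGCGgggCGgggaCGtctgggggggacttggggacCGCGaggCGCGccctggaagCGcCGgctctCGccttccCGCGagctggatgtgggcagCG
Pthlh: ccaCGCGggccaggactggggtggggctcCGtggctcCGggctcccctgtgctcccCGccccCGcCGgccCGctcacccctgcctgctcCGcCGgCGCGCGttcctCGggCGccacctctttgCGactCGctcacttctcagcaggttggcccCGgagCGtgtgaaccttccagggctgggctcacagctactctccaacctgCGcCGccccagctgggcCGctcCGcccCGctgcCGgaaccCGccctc
Pth1r, CpG-rich start: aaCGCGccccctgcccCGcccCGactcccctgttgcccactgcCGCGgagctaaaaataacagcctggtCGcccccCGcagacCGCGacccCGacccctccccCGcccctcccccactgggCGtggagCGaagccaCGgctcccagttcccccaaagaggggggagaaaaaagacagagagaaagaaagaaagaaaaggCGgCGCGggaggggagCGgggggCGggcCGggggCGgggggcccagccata
Pth1r, CpG-poor start: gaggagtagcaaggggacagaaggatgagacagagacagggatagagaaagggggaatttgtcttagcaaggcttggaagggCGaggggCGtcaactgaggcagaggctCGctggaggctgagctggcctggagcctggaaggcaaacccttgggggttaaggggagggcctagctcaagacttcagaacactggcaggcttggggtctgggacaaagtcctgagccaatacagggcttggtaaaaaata
The Ptch1 run held 41 CpG dinucleotides and the Pthlh run 26. The Pth1r runs held 22 and 3, and a start between them held 16. The median over 32851 promoters of the same length was 6, with quartiles of 2 and 16. RefSeq promoters matched 8 of the 9 genes, with 10 starts in all. The runs before the other starts held 34 CpG (Gli3), 28 (Hhip), 24 (Ihh), 22 (Gli2) and 15 (Smo). For Hhip and Smo the first bases after the start were not found in a GENCODE M21 transcript of the gene. The Gli binding motif GACCACCCA, searched on both strands from 250 bases before to 50 after each start, was in 83 of the 32851 promoters (0.253%) and in 0 of these 10, which says only that these letters are not in this window. The RNA values do not show which Pth1r start was used.

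Library depth was 13993307 to 56041798 estimated reads. Values are the authors' median-normalised estimated counts, called normalised counts here, and they are compared only within a table because the tables were scaled separately. One holds the siRNA groups with the 2 H3.3 lines, and the other holds the tumors with the 3 transgene lines. In the HMT siRNA cells, Setd2 was at 1114, 1063 and 1224 normalised counts against 3225, 3114 and 3401 in control siRNA cells. Whsc1, the symbol used for Nsd2, had 66.7% and Nsd1 69.4% of the control mean. All 12 mesenchymal markers of a fixed list were above 0 in each group of cultured cells and in the tumors. Of values between 1 and 20 reads, 76.3 to 79.1% were whole numbers (within 0.01) in libraries of the 2 H3.3 lines, against 84.0 to 86.7% in the other groups, so comparisons of these lines with siRNA, H3.1K36M or tumor libraries set unlike libraries side by side. Tumor 6 stood apart from the other tumors, so the 9 genes and the gene lists are also given without it.

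Per kilobase of the longest coding transcript (GENCODE M21 lengths), Smo had the highest level of the 9 genes in H3.3K36M cells, at 971 normalised counts per kilobase. Gli3 followed at 296 per kilobase, Ptch1 at 84.6, Gli1 at 59.4, Gli2 at 51.3 and Pth1r at 29.3. Hhip, Pthlh and Ihh were near the limit of detection, at 2.40, 1.90 and 0.970 per kilobase. In H3.3 wild-type cells Pth1r was the second highest, at 367 per kilobase, between Smo at 1356 and Gli3 at 315.

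H3.3K36M cells had lower RNA levels than H3.3 wild-type cells for the PTHrP receptor, for its ligand, and for Ptch1, Smo, Gli1 and Gli2, while the ligand trap Hhip was higher. Of the 9 genes, 8 passed the filter on low values, 7 of these changed, 1 up and 6 down, and Gli3 did not pass the test. Hhip and Pthlh passed the filter only through the group in which they were high. Over all 12937 genes tested in this comparison, 71.6% changed (37.8% higher and 33.8% lower), so a high share of changed genes is not particular to these 9. All tests on genes used limma with Benjamini-Hochberg adjustment across every gene of the fit, two-sided, at a threshold of 0.05, on log2(normalised count + 1), a scale that understates the change of low genes. Values in the next paragraphs come from the table with the siRNA groups.

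**Figure D1:**
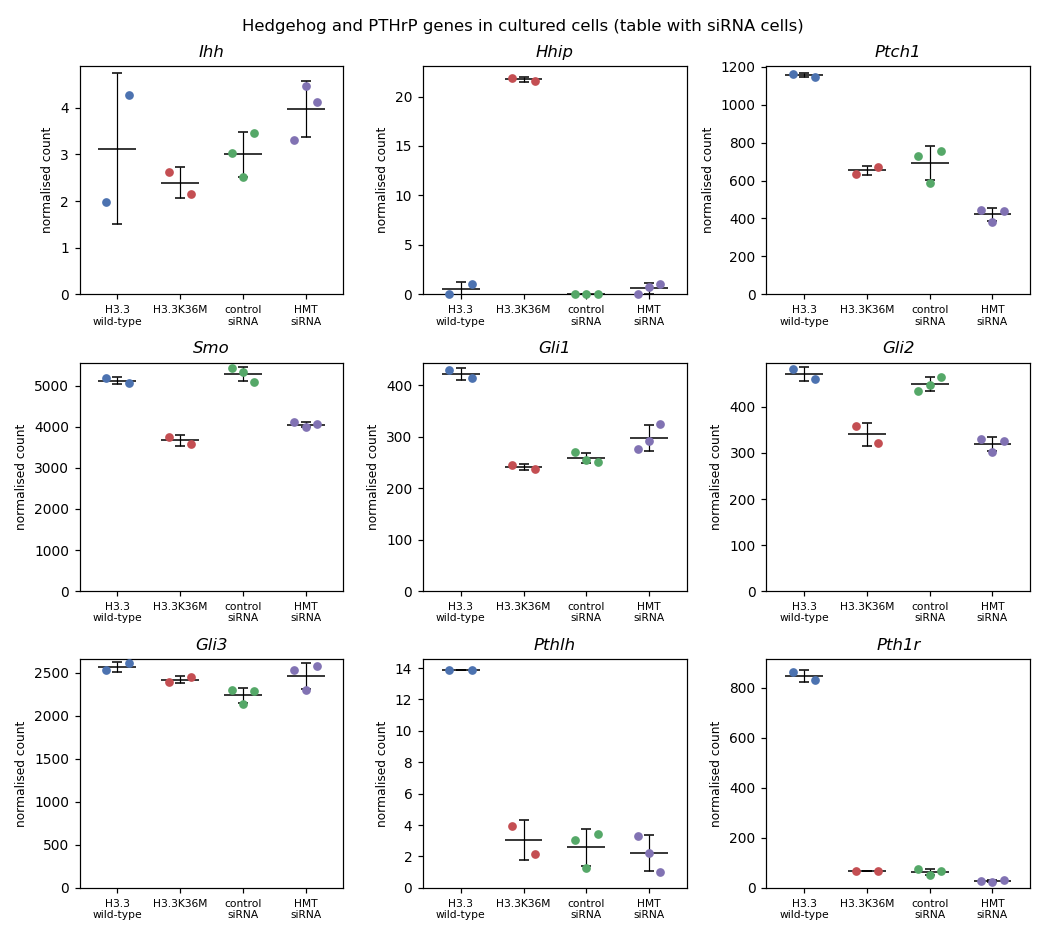
Normalised counts (linear axes from 0) of the 9 genes in each library of the table with siRNA cells, with points for libraries and black lines for the mean and SD of each group (n = 2, 2, 3 and 3). Pth1r and Pthlh stand high in the H3.3 wild-type cells alone, Hhip in the H3.3K36M cells, and Gli1 is the member whose HMT siRNA libraries all lie above the control siRNA libraries while Ptch1 lies below.

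Ihh, the ligand, had 1.99 and 4.27 normalised counts in the wild-type libraries and 2.63 and 2.16 in the H3.3K36M libraries. The siRNA cells had 3.04, 2.51 and 3.46 with the control siRNA and 3.32, 4.48 and 4.13 with the HMT siRNA. The wild-type and H3.3K36M groups overlapped, the sums were 6 to 13 estimated reads per group, and Ihh did not pass the filter in any comparison of cultured cells. At this depth no difference was detectable for it.

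Hhip, a membrane protein that binds hedgehog ligands and keeps them from Ptch1, was at 21.9 and 21.6 normalised counts in the H3.3K36M libraries and at 0 and 1.07 in the wild-type libraries. The siRNA libraries were at 0 in all 3 controls and at 0, 0.746 and 1.03 with the HMT siRNA. The H3.3K36M libraries were thus the only ones of this table above 2 normalised counts. The log2 fold change against wild-type cells was 3.98 ± 0.72 (SE, limma adjusted p = 7.03e-05). In reads it was 80 against 1, a depth-scaled ratio of 42.4 with an exact 95% interval of 7.39 to 1694, which covers counting error only.

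Ptch1, the receptor and a target of the pathway, was at 1163 and 1148 normalised counts in the wild-type libraries and 637 and 670 in the H3.3K36M libraries. Neither H3.3K36M library reached the wild-type range. The log2 fold change was -0.82 ± 0.10 (SE, limma adjusted p = 7.54e-07), a 1.77-fold lower mean. Smo, the signal transducer that Ptch1 restrains, fell from 5187 and 5062 to 3764 and 3573, also without overlap, with a log2 fold change of -0.48 ± 0.04 (SE, limma adjusted p = 8.53e-09).

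Among the Gli factors, Gli1, whose transcription is a classical readout of hedgehog signalling, was at 431 and 414 normalised counts in wild-type and 246 and 237 in H3.3K36M libraries. Its log2 fold change was -0.81 ± 0.09 (SE, limma adjusted p = 2.79e-07), close in size to that of Ptch1. Gli2, the main activator, was at 483 and 460 against 359 and 323, with a log2 fold change of -0.47 ± 0.08 (SE, limma adjusted p = 4.5e-05). Gli3, the main repressor, was at 2528 and 2614 against 2391 and 2449, and its difference of -0.09 ± 0.05 (95% interval -0.20 to 0.03, limma adjusted p = 0.162) did not pass the test. In the fit of the 6 cultured libraries of the other table the Gli3 difference was -0.12 and passed (limma adjusted p = 0.00964).

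On the PTHrP arm, Pth1r, the G protein-coupled receptor shared by PTHrP and parathyroid hormone, was at 863 and 829 normalised counts in the wild-type libraries and 67.5 and 67.6 in the H3.3K36M libraries. The H3.3K36M mean was 12.5-fold lower, with a log2 fold change of -3.63 ± 0.18 (SE, limma adjusted p = 1.86e-12). The ligand gene Pthlh was at 13.9 in both wild-type libraries and at 3.95 and 2.16 in the H3.3K36M libraries. Its log2 fold change was -1.91 ± 0.58 (SE, limma adjusted p = 0.00638), resting on 12 against 27 estimated reads, a ratio of 0.235 with an exact 95% interval of 0.109 to 0.481. Without H3.3K36M replicate 2 the Pthlh call was lost (limma adjusted p = 0.0613).

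These falls depended on which cells served as the reference. The control siRNA libraries, which are parental cells without a histone transgene, had Pth1r at 74.4, 51.4 and 65.9 normalised counts, near the 67.5 and 67.6 of the H3.3K36M cells and far below the 863 and 829 of the H3.3 wild-type line. The wild-type line also stood above the control siRNA cells in the mean of Ptch1 (1156 against 691), Gli1 (422 against 259) and Pthlh (13.9 against 2.58), whereas Smo (5124 against 5292) and Gli2 (471 against 449) lay close together. In a fit of H3.3K36M cells against the control siRNA cells, chosen after seeing the data, 4 of 7 tested genes changed, 2 up and 2 down, beside 76.4% of 12992 genes (39.6% higher and 36.7% lower). There Hhip (4.51), Smo (-0.53) and Gli2 (-0.40) kept their direction and their call. Ptch1 (-0.07, limma adjusted p = 0.477) and Gli1 (-0.10, adjusted p = 0.284) did not pass, Pth1r turned to 0.095 (adjusted p = 0.611) and Gli3 to 0.11 (adjusted p = 0.0493). Transgene expression, the siRNA treatment and the differing shares of whole values cannot be told apart between these 2 references.

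Marker lists of other cell types also differed between the same 2 H3.3 lines. From wild-type to H3.3K36M libraries, the sum of 8 Schwann cell markers went from 2787 to 2841 down to 593 to 660 normalised counts, and that of 8 keratinocyte markers from 408 to 439 down to 168 to 204. The sum of 9 macrophage markers went from 175 to 185 up to 381 to 388. That of 6 red cell markers went from 8.53 to 10.9 up to 634 to 673. Only 1 red cell marker, Hba-a1, was tested (7.11, limma adjusted p = 5.88e-10), and 2 were at 0 in both H3.3K36M libraries. The sum of 8 endothelial markers went from 691 to 738 down to 170 to 185, but only 2 of them were tested, and of these Tek fell (-2.54, limma adjusted p = 3.37e-11) and Cdh5 rose (1.71, 0.0158). The sum of 12 mesenchymal markers went from 1218000 to 1224000 down to 735700 to 782600. That of 6 pericyte markers went from 20760 to 21090 down to 15970 to 17370. Members did not all follow their sums. Of 12 tested mesenchymal markers 4 rose and 6 fell, and of 3 pericyte markers 2 rose and 1 fell. Of 5 keratinocyte markers 1 rose and 2 fell. Of 6 Schwann cell markers 0 rose and 5 fell, and of 4 macrophage markers 3 rose and 0 fell. Over all genes 37.8% were higher and 33.8% lower. In both wild-type libraries 1 Schwann, 2 keratinocyte, 3 macrophage, 3 red cell, 3 endothelial, 0 mesenchymal and 1 pericyte marker were at 0. The part of these shifts in the changes of the 9 genes was not tested.

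With siRNAs against the 3 methyltransferases, Ptch1, Smo, Gli2 and Pth1r were lower than in control siRNA cells, but Gli1 and Gli3 were slightly higher. In the HMT siRNA cells against control siRNA cells, 6 of the 9 genes were tested and all 6 changed, 2 up and 4 down, beside 66.8% of 12248 genes over the table (33.3% higher and 33.5% lower). Ptch1 was at 447, 381 and 437 normalised counts with the HMT siRNA and at 731, 587 and 754 with the control siRNA. The groups did not overlap, and the log2 fold change was -0.71 ± 0.08 (SE, limma adjusted p = 3.6e-07). Gli1 was at 277, 292 and 325 against 270, 255 and 251, so that each HMT library lay above each control library, by a log2 fold change of 0.20 ± 0.08 (SE, limma adjusted p = 0.0237).

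Smo was at 4110, 3991 and 4068 normalised counts with the HMT siRNA and at 5438, 5342 and 5097 with the control, and Gli2 at 331, 303 and 325 against 435, 448 and 465. Neither gene's groups overlapped, and the log2 fold changes were -0.38 ± 0.03 (Smo, limma adjusted p = 5.86e-09) and -0.49 ± 0.07 (Gli2, limma adjusted p = 1.85e-06). Gli3 was at 2530, 2295 and 2579 against 2299, 2137 and 2283, groups that overlapped, with a log2 fold change of 0.14 ± 0.04 (limma adjusted p = 0.00957). The Gli1 call was lost without HMT siRNA replicate 3 (adjusted p = 0.147) or control replicate 3 (0.0618). The Gli3 call was lost without HMT siRNA replicate 3 (limma adjusted p = 0.0671) or replicate 1 (0.0541).

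Pth1r went from 74.4, 51.4 and 65.9 normalised counts with the control siRNA to 25.5, 25.4 and 33 with the HMT siRNA. All 3 HMT libraries lay below all 3 controls, with a log2 fold change of -1.16 ± 0.15 (SE, limma adjusted p = 7.48e-07) and a 2.29-fold lower mean. Pthlh was at 3.32, 2.24 and 1.03 against 3.04, 1.25 and 3.46, and at 5 to 7 estimated reads per group it did not pass the filter. Beside these values, the Schwann cell marker sum went from 1353 to 1588 down to 369 to 409 normalised counts and the endothelial sum from 194 to 223 down to 45.4 to 67.9, with Tek (-2.0) the only endothelial marker tested, and with 1 Schwann and 1 endothelial marker at 0 in all 3 HMT libraries. Keratinocyte sums rose from 288 to 301 up to 464 to 524, and macrophage sums from 140 to 182 up to 268 to 317. Red cell sums rose from 5.02 to 6.07 up to 16.4 to 22.1, and mesenchymal sums from 964500 to 1027000 up to 1212000 to 1231000. Pericyte sums overlapped. Of tested markers 1 of 3 keratinocyte, 1 of 3 macrophage and 1 of 1 red cell marker rose. Of 12 mesenchymal markers 7 rose and 3 fell. The part of these shifts was not tested.

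The difference between the H3.3K36M response and the HMT siRNA response, each against its own reference, was tested as 1 term. It passed for 4 of 8 genes tested, 1 up and 3 down, beside 54.9% of 13186 genes (27.5% higher and 27.4% lower). Gli1 differed by -1.01 ± 0.12 (SE, limma adjusted p = 8.79e-07), falling in one setting and rising in the other. Gli3 differed by -0.23 ± 0.07 (limma adjusted p = 0.0115), Pth1r by -2.47 ± 0.23 (5.31e-08) and Hhip by 3.38 ± 0.93 (0.00497). Hhip was under the filter in both siRNA groups and entered this fit through the H3.3K36M libraries, so its difference restates its rise there. For Ptch1 the difference was -0.12 with a 95% interval of -0.38 to 0.15 (limma adjusted p = 0.462), for Smo -0.10 with -0.21 to 0.02 (0.136) and for Gli2 0.02 with -0.20 to 0.24 (0.873). These intervals bound how far the Ptch1, Smo and Gli2 responses could differ and do not show that they were alike. The Pthlh difference, which entered through the wild-type libraries, was -1.74 ± 0.75 (limma adjusted p = 0.0569). Without H3.3 wild-type replicate 2 the Gli3 difference did not pass (limma adjusted p = 0.0612).

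**Figure D2:**
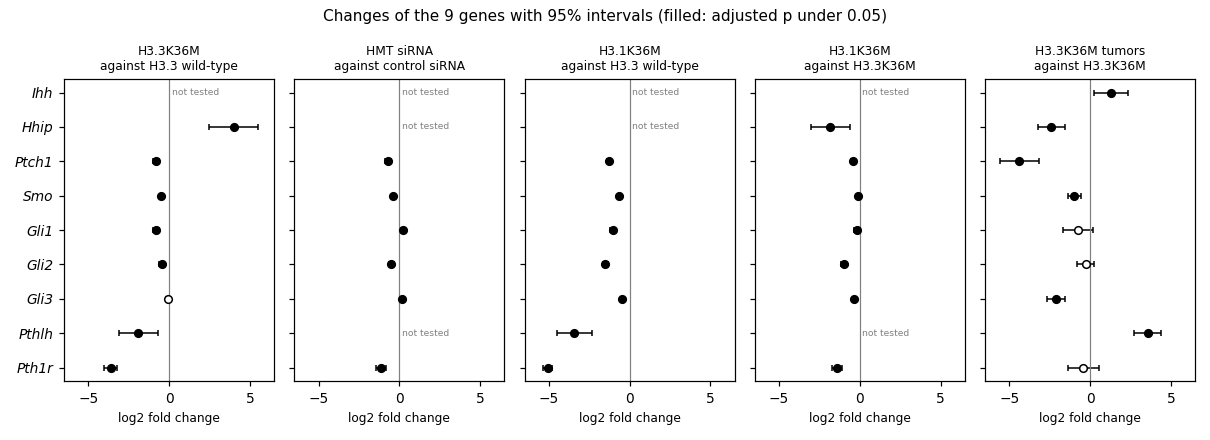
Log2 fold change of each gene with its 95% interval in 5 comparisons, with filled points where the limma adjusted p was under 0.05 and genes under the filter marked as not tested. Ptch1 and Smo lie left of 0 in each panel, and Pthlh lies left of 0 in both comparisons of cultured lines where it was tested and right of 0 in the tumors.

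H3.1K36M cells, the line with the same mutation in the replication-coupled histone H3.1, had the lowest levels of Ptch1, Smo, Gli1, Gli2, Gli3, Pthlh and Pth1r among the 3 transgene lines. The reference for them was again the H3.3 wild-type line. Of the 9 genes 7 were tested against it and all 7 fell, Pthlh having passed the filter only through the wild-type libraries, beside 80.7% of 12955 genes changed and 39.4% lower over the table. The values that follow come from the table with the tumors, in which H3.3 libraries have other values than in the siRNA table because the scale differs.

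Ptch1 was at 642 and 636 normalised counts in H3.1K36M, 840 and 885 in H3.3K36M and 1564 and 1555 in wild-type cells. The 3 lines did not overlap, and the log2 fold changes of H3.1K36M were -1.29 ± 0.05 against wild-type (limma adjusted p = 1.55e-12) and -0.43 ± 0.05 against H3.3K36M cells (limma adjusted p = 3.29e-06). Gli2 was at 220 and 227 in H3.1K36M, 473 and 426 in H3.3K36M and 649 and 623 in wild-type cells, a log2 fold change of -1.51 ± 0.08 against wild-type (limma adjusted p = 3.38e-11). Gli2 in H3.1K36M cells was 2.01-fold below H3.3K36M cells, with a log2 fold change of -1.0 ± 0.08 (limma adjusted p = 2.81e-08), whereas Gli1 differed between the 2 mutants by -0.21 ± 0.08 (0.0232).

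Gli1 was at 269 and 282 normalised counts in H3.1K36M, 324 and 312 in H3.3K36M and 580 and 560 in wild-type cells. Gli3 was at 2523 and 2461, 3152 and 3233, and 3401 and 3538 in the same order, and Smo at 4407 and 4501, 4962 and 4717, and 6980 and 6852. The order of the lines was the same for these 3 genes. Against wild-type cells the log2 fold changes of H3.1K36M were -1.05 (Gli1), -0.48 (Gli3) and -0.63 (Smo).

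Pth1r was at 27.9 and 38.3 normalised counts in H3.1K36M, 89.0 and 89.2 in H3.3K36M and 1161 and 1122 in wild-type cells. H3.1K36M cells were 34.5-fold below wild-type cells in the mean, with a log2 fold change of -5.08 ± 0.14 (SE, limma adjusted p = 1.11e-14), and lay -1.42 ± 0.14 from H3.3K36M cells (limma adjusted p = 4.33e-07). Pthlh was at 0.698 and 0.958 in H3.1K36M, 5.20 and 2.85 in H3.3K36M and 18.7 and 18.8 in wild-type cells. The 2 Pthlh reads of the H3.1K36M line against 27 gave a ratio of 0.0431 with an exact 95% interval of 0.00497 to 0.172.

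Hhip, high in the H3.3K36M line (28.9 and 28.5 normalised counts), was at 4.19 and 12.5 in the H3.1K36M line and at 0 and 1.44 in wild-type cells. The H3.1K36M libraries lay between the other lines, with 19 estimated reads against 1 in wild-type cells (ratio 11.1, exact 95% interval 1.76 to 459), and this contrast did not pass the filter. Against H3.3K36M cells all 7 tested genes fell, beside 69.0% of 13112 genes changed and 32.9% lower, and Hhip differed by -1.83 ± 0.56 (SE, limma adjusted p = 0.00991). Without H3.1K36M replicate 1, 4 of the genes passed, and Hhip (limma adjusted p = 0.138), Smo (0.0837) and Gli1 (0.13) did not. Schwann cell marker sums were 512 to 537 in H3.1K36M, 782 to 871 in H3.3K36M and 3750 to 3846 in wild-type cells, with 1 of 8 markers at 0 in both H3.1K36M libraries, and their part was not tested. In this comparison Hhip passed the filter through the H3.3K36M libraries.

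**Figure D3:**
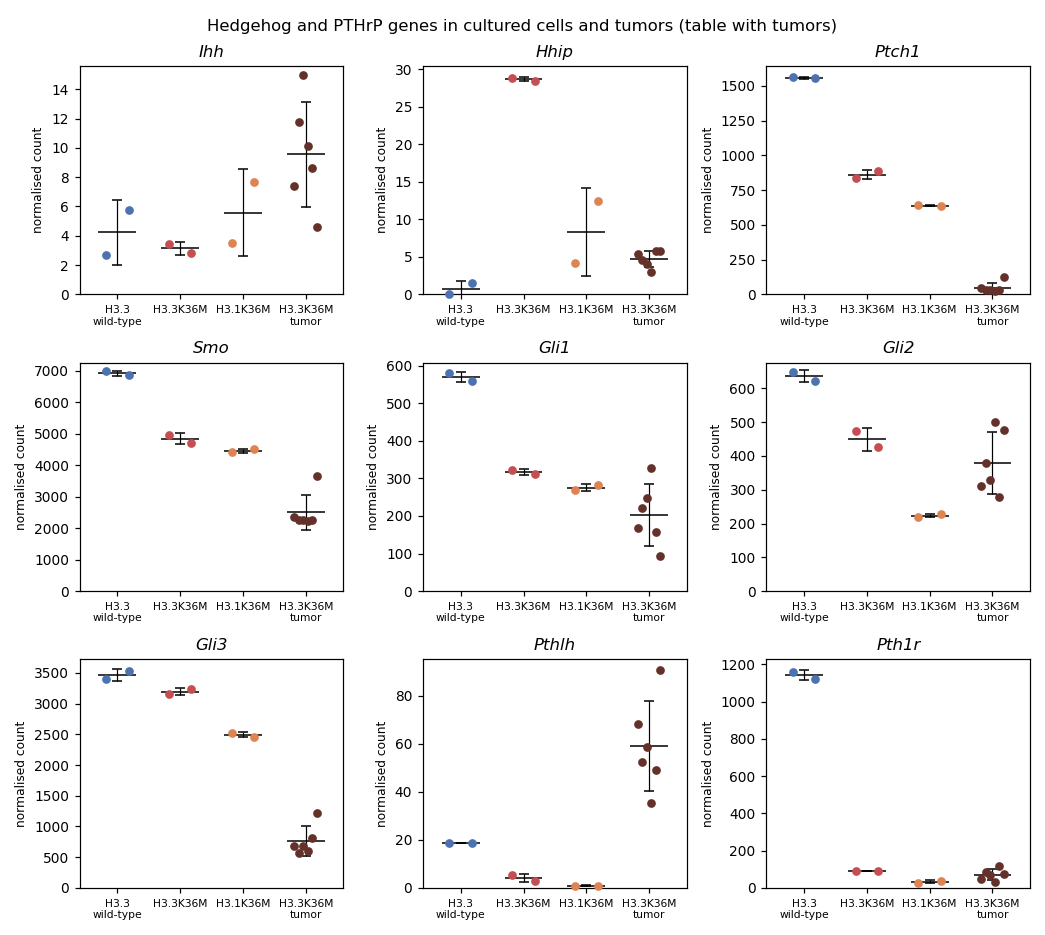
Normalised counts (linear axes from 0) of the 9 genes in each library of the table with tumors, with points for libraries and black lines for the mean and SD of each group (n = 2, 2, 2 and 6). The tumors are lowest for Ptch1, Smo and Gli3 and highest for Pthlh, and 1 tumor, replicate 6, lies above the other 5 for Ptch1, Smo and Gli3.

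Tumors of H3.3K36M cells differed from the same cells in culture by a far lower level of Ptch1, lower Gli3, Smo and Hhip, and a higher level of Pthlh. Ihh was also higher, but its call was lost in 6 of 14 alternatives. Of the 9 genes, all tested, 6 changed, 2 up and 4 down, beside 75.2% of 14842 genes (41.0% higher and 34.2% lower). Pthlh and Ihh passed the filter only through the tumors, and Hhip only through the cultured cells. A tumor library holds RNA of the injected cells and of mouse host cells together, so fewer cells of a type and less RNA per cell cannot be told apart. The median log2 fold change over all genes was 0.14, and it was -0.08 after quantile normalisation, so changes of about this size carry no direction.

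Ptch1 ranged from 22.3 to 122 normalised counts in the 6 tumors with a median of 34.0, against 840 and 885 in the cultured cells. All tumors lay below both cultured libraries, tumor 6 being the highest. The log2 fold change was -4.38 ± 0.53 (SE, limma adjusted p = 6.19e-05), and -4.69 without tumor 6 (limma adjusted p = 1.29e-07). Gli1, the other classical target, ranged from 92.9 to 329 with a median of 195, against 324 and 312. These groups overlapped through tumor 4, and the difference of -0.75 ± 0.40 (95% interval -1.65 to 0.15, limma adjusted p = 0.113) did not pass. Without tumor 4 it was -0.91 (limma adjusted p = 0.0399), and without tumor 6 it was -0.55 (0.0807).

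Within the tumors Ptch1 and Gli1 took different orders. Tumor 6 had the highest Ptch1 (122 normalised counts) and the lowest Gli1 (92.9), and tumor 4 had the lowest Ptch1 (22.3) and the highest Gli1 (329). Smo ranged from 2214 to 3653 with a median of 2272 against 4962 and 4717 in culture, again without overlap, with a log2 fold change of -0.97 ± 0.18 (SE, limma adjusted p = 0.00104). Gli3 ranged from 563 to 1224 with a median of 684 against 3152 and 3233, a log2 fold change of -2.12 ± 0.26 (SE, limma adjusted p = 6.19e-05).

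Gli2 ranged from 277 to 501 normalised counts with a median of 355 against 473 and 426, overlapped between groups, and did not pass (-0.28, 95% interval -0.80 to 0.24, limma adjusted p = 0.296). Hhip ranged from 3.04 to 5.77 with a median of 4.94 against 28.9 and 28.5, with a log2 fold change of -2.39 ± 0.38 (SE, limma adjusted p = 0.000338). The Hhip tumors were above the 0 and 1.44 of wild-type cells but below the cells they were grown from.

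Pthlh, the PTHrP gene, ranged from 35.4 to 90.6 normalised counts in the tumors with a median of 55.5, against 5.20 and 2.85 in cultured H3.3K36M and 18.7 and 18.8 in wild-type cells. Each tumor lay above each cultured library of that table. The log2 fold change against H3.3K36M cells was 3.56 ± 0.37 (SE, limma adjusted p = 2.55e-05), from 351 against 12 estimated reads, a ratio of 13.8 with an exact 95% interval of 7.82 to 27.0. The receptor Pth1r ranged from 32.4 to 117 with a median of 73.1, on both sides of the cultured 89.0 and 89.2, and did not pass (-0.43 ± 0.42, 95% interval -1.37 to 0.52, limma adjusted p = 0.371). After quantile normalisation the Pth1r difference was -1.25 (limma adjusted p = 0.014).

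Ihh ranged from 4.59 to 15.0 normalised counts in the tumors with a median of 9.39, against 3.47 and 2.85 in cultured H3.3K36M cells. All 6 tumors lay above those 2 libraries, though 1 tumor lay within the 2.67 and 5.78 of wild-type cells. The log2 fold change was 1.28 ± 0.47 (SE, limma adjusted p = 0.0318), from 55 against 9 estimated reads, a ratio of 2.89 with an exact 95% interval of 1.42 to 6.65. The call was lost after quantile normalisation (0.38, limma adjusted p = 0.509), with a pseudocount of 10 (0.0503) and without either cultured library (0.102 and 0.158), tumor 2 (0.0606) or tumor 3 (0.0545).

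Beside these values the marker sums of macrophages, endothelial cells and Schwann cells rose, while those of mesenchymal cells and pericytes fell. The sum of 9 macrophage markers went from 502 to 512 normalised counts in culture to 121600 to 169200 in tumors, and that of 8 endothelial markers from 225 to 244 to 10680 to 30170. None of the markers on these lists was at 0 in any tumor. The sum of 8 Schwann cell markers went from 782 to 871 to 1500 to 2528, with Foxd3 at 0 in tumors 2 and 4. It stayed below the 3750 to 3846 of cultured wild-type cells, and of 7 Schwann cell markers tested 4 rose and 1 fell. The sum of 12 mesenchymal markers went from 971000 to 1032000 down to 394700 to 453900. That of 6 pericyte markers went from 21090 to 22910 down to 9552 to 14260, although 4 of these markers rose and 2 fell.

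The sum of 8 keratinocyte markers, a cell type known to make PTHrP, was 32380, 8009, 12640, 484, 28410 and 308 normalised counts in tumors 1 to 6, against 222 to 269 in culture, and Trp63 was at 0 in tumor 4. Tumor 6, with the lowest keratinocyte sum, had the highest Pthlh (90.6), and tumor 4, with the next lowest, had the lowest Pthlh (35.4). Both values were above the cultured 5.20 and 2.85. The part of keratinocytes, macrophages, endothelial cells and Schwann cells in the 9 genes' changes was not tested.

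Without tumor 6 the same 6 genes passed against cultured H3.3K36M cells, and Gli1, Gli2 and Pth1r did not. The log2 fold changes were then 3.43 for Pthlh (limma adjusted p = 7.88e-06), 1.45 for Ihh (0.00987) and -2.44 for Hhip (0.000289). They were -1.09 for Smo (1.6e-07), -2.26 for Gli3 (1.73e-07), -0.35 for Gli2 (0.138) and -0.47 for Pth1r (0.328).

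**Figure D4:**
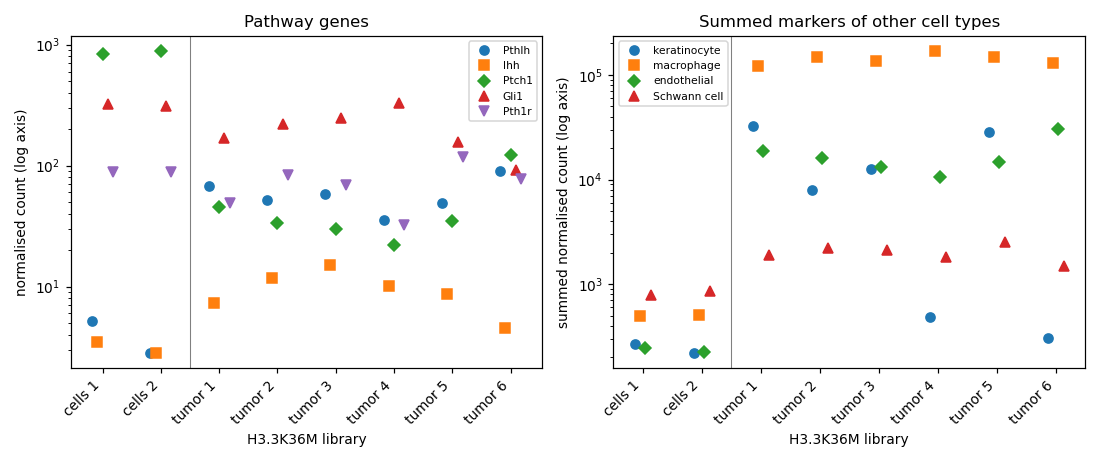
Left, normalised counts (log axis) of Pthlh, Ihh, Ptch1, Gli1 and Pth1r in the 2 cultured H3.3K36M libraries and the 6 tumors, and right, the summed normalised counts (log axis) of 4 marker lists in the same libraries. Ptch1 is lower and Pthlh higher in all 6 tumors than in both cultured libraries, and the keratinocyte sums of tumors 4 and 6 (484 and 308) lie nearest the cultured sums.

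The other ligands and release factors of the hedgehog pathway were few. Shh, the ligand of limb and neural patterning, was at 0 in all 6 tumors and in the H3.1K36M and control siRNA cells, and its group mean was at most 0.668 elsewhere. Dhh, the ligand that Schwann cells make, ranged from 4.05 to 18.8 normalised counts in tumors against 0 and 1.73 in cultured H3.3K36M cells (log2 fold change 2.96 ± 0.62, limma adjusted p = 0.00197). Dhh passed the filter only through the tumors. Scube3, which helps release hedgehog ligands, fell in tumors (log2 fold change -2.98, limma adjusted p = 8.37e-06) and rose in H3.1K36M cells against wild-type cells (3.62, limma adjusted p = 1e-13). Against wild-type cells Scube3 rose in H3.3K36M cells (1.03) and Hhat, the ligands' acyltransferase, fell (-0.76), as did Scube2 (-1.39). Against control siRNA cells both directions turned, to -0.51 for Scube3 (limma adjusted p = 0.00238) and 0.25 for Hhat (0.0161). With the HMT siRNA Scube3 fell (-1.37) and Hhat rose (0.46). Without tumor 6 the counts of this list in tumors were the same as with it, 1 rise and 2 falls among 5 genes tested. With all tumors 41.0% of all genes were higher and 34.2% lower.

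Co-receptors that help ligands reach Ptch1 were mostly lower. The log2 fold change of Boc was -2.85 in H3.3K36M cells, -1.28 with the HMT siRNA and -5.24 in H3.1K36M cells against wild-type (limma adjusted p = 1.24e-19, 2.24e-16 and 1.47e-19). Of 4 tested co-receptors and extracellular binders, 1 rose and 2 fell in H3.3K36M cells against wild-type (Lrp2 at 1.85, Gas1 at -1.39, median log2 fold change -0.74, all genes 0.02), and 0 rose and 3 fell against control siRNA cells, and 4 of 4 fell with the HMT siRNA (median -0.94, all genes -0.0025). In H3.1K36M cells 3 of 3 fell, with Gas1 at -3.52 and Cdon at -0.44. Over all genes the share lower was 33.8% in H3.3K36M cells against wild-type and 36.7% against control siRNA cells. It was 33.5% with the HMT siRNA and 39.4% in H3.1K36M cells. In tumors 2 of 5 rose and 3 fell, beside 41.0% of all genes higher and 34.2% lower, with the same counts without tumor 6. Gpc3, a glypican that competes for ligand, was at 4.17 (limma adjusted p = 0.00354) and Gas1 at -2.84 (0.000283). Gpc3 was under the filter in H3.3K36M against control siRNA cells and passed it here through the tumors.

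Of the 15 tested genes that act between Smo and the Gli factors, 2 rose and 7 fell in H3.3K36M cells (median log2 fold change -0.09), 3 rose and 7 fell with the HMT siRNA (0.0041), and 4 rose and 8 fell in H3.1K36M cells against wild-type (-0.10). The 9 of 15 that changed in H3.3K36M cells stand beside 71.6% of all genes, the 10 of 15 with the HMT siRNA beside 66.8%, and the 12 of 15 in H3.1K36M cells beside 80.7%. Against control siRNA cells 3 rose and 11 fell in H3.3K36M cells, beside 76.4%. Stk36, a Fused-family kinase, fell by 1.15 in H3.3K36M cells (limma adjusted p = 1.78e-08), Prkaca, a protein kinase A subunit, was at 0.56 and Gsk3b, a kinase of Gli processing, at -0.42. In tumors 1 rose and 8 fell (median -0.62), with Evc, a cilium protein that relays Smo activity, at -2.48 and Gpr161, a receptor that restrains the pathway through cAMP, at -2.09. Without tumor 6, 1 rose and 11 of the 15 fell. Over all genes 41.0% were higher and 34.2% lower in tumors.

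Of the 10 cilium genes, 3 rose and 6 fell in H3.3K36M cells (median -0.51), 0 rose and 5 fell with the HMT siRNA (-0.15), and 4 rose and 6 fell in H3.1K36M cells against wild-type (-0.47). Over all genes 33.8%, 33.5% and 39.4% were lower in these comparisons. The largest changes in H3.3K36M cells were those of the transport genes Ift88 (-0.87) and Dync2h1 (-0.56) and of Arl13b (-0.58). Against control siRNA cells the counts were the same, which does not show that the same genes moved. There Ift88 was at -1.04, Dync2h1 at -1.18 and Arl13b at -0.20, and Ift80 was higher (0.17, limma adjusted p = 0.00998). In tumors 0 rose and 8 fell (-0.97), beside 34.2% of all genes lower and with the same counts without tumor 6, with Rpgrip1l, of the transition zone, at -2.57 (limma adjusted p = 3.58e-05).

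Other genes known as hedgehog targets were more often higher than lower in H3.3K36M cells, where Ptch1 and Gli1 fell. Of 11 tested targets outside the 9 genes, 6 rose and 1 fell against wild-type cells, with a median log2 fold change of 0.52 beside 0.02 for all genes. Foxl1 and Foxf2, forkhead factors of mesenchyme, rose by 1.66 and 1.48 (limma adjusted p = 0.000317 and 8.87e-11), and Ccnd2, a D-type cyclin, by 1.44 (4.35e-16), while Foxd1 fell by 0.65. Over all genes 37.8% were higher and 33.8% lower. Against control siRNA cells, where Ptch1 and Gli1 did not pass, 7 targets rose and 3 fell, Foxl1 (0.86), Foxf2 (1.48) and Ccnd2 (0.35) rose, Foxd1 turned to 0.90 (limma adjusted p = 2.32e-10) and Bcl2, 1.17 against wild-type cells, turned to -0.27 (0.0124). With the HMT siRNA 6 rose and 3 fell (median 0.23), and in H3.1K36M cells against wild-type 7 rose and 2 fell (median 0.71). Over all genes the shares higher and lower were 39.6% and 36.7% against control siRNA cells. They were 33.3% and 33.5% with the HMT siRNA and 41.3% and 39.4% in H3.1K36M cells. Foxl1 rose in all of these comparisons and in the tumors (2.09, limma adjusted p = 0.00101). In tumors 3 of 12 targets rose and 4 fell (median -0.09), beside 41.0% of all genes higher and 34.2% lower. Foxd1 was at -2.77, Bmp4 at -2.73 and Ccnd2 at -2.67 there. After quantile normalisation 1 target rose and 6 fell, while without tumor 6, 4 rose and 5 fell.

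**Figure D5:**
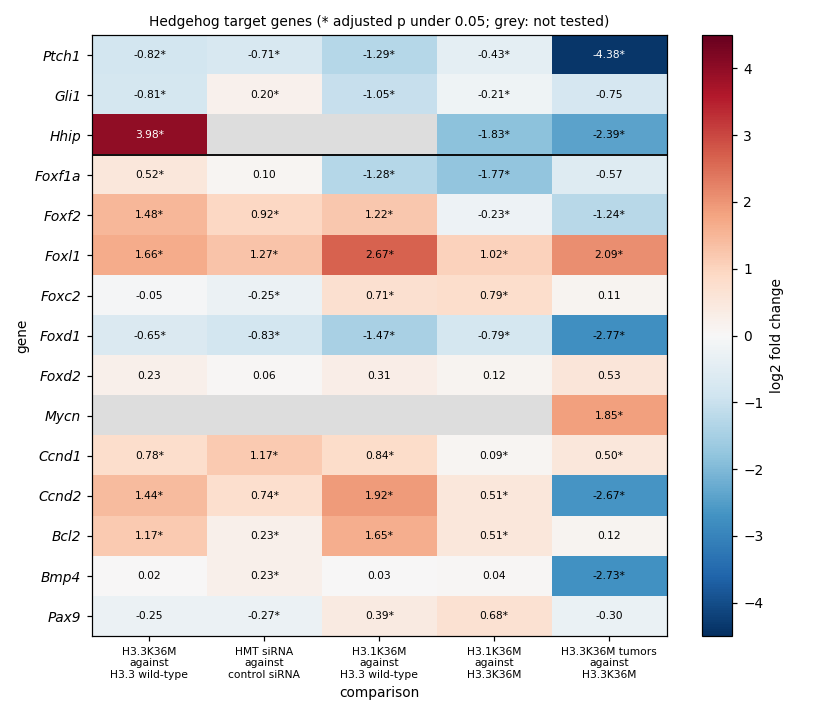
Log2 fold changes in 5 comparisons for Ptch1, Gli1 and Hhip (above the line) and for other hedgehog target genes (below it), with colour for direction and size, an asterisk for a limma adjusted p under 0.05, and grey for genes under the filter. Ptch1 and Gli1 are lower in H3.3K36M cells (-0.82 and -0.81) and Foxf2, Foxl1, Ccnd1, Ccnd2 and Bcl2 higher, against the wild-type line. In the fit against control siRNA cells, which is not drawn, Ptch1 and Gli1 did not pass and Bcl2 was lower.

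On the PTHrP side, of 21 tested signalling genes 9 rose and 8 fell in H3.3K36M cells (median log2 fold change 0.06), 8 rose and 8 fell with the HMT siRNA (0.04), and 10 rose and 7 fell in H3.1K36M cells against wild-type (0.08). The shares over all genes were 37.8% higher and 33.8% lower, 33.3% and 33.5%, and 41.3% and 39.4%, so these counts lie near the background. Against control siRNA cells 6 rose and 8 fell in H3.3K36M cells (-0.029). Mef2c, a driver of hypertrophy that PTHrP signalling restrains through class IIa histone deacetylases, fell in the same comparisons, with log2 fold changes of -2.99, -1.36 and -3.74 (limma adjusted p = 3.53e-16, 6.13e-13 and 1.1e-13). Arrb1, a beta-arrestin of receptor desensitisation, rose by 1.74, 0.99 and 1.98, and Rgs2, which dampens receptor signalling, was at -1.34 in H3.3K36M cells. In tumors 6 rose and 12 fell (median -0.47), beside 41.0% of all genes higher and 34.2% lower, and 6 and 13 without tumor 6. Mef2c there was at 3.75 (limma adjusted p = 7.48e-09), Hdac4, one of those deacetylases, at -3.66 (0.000127) and Zfp521, a PTHrP-responsive factor, at -4.28 (6.45e-06). Mef2c is also expressed by endothelial and macrophage cells, whose markers rose in the tumors as given above. The part of these cells in the Mef2c rise was not tested.

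The chondrocyte genes on which the 2 pathways act were mostly low in the mutants. All 12 tested genes of proliferating chondrocytes fell in H3.3K36M cells (median log2 fold change -4.25) and in H3.1K36M cells against wild-type (-5.85), and all 11 tested fell with the HMT siRNA (-1.79). Over all genes 33.8%, 39.4% and 33.5% were lower in these comparisons. Acan, the main cartilage proteoglycan, had log2 fold changes of -8.02, -9.18 and -4.06 in these comparisons. Sox6, a chondrocyte transcription factor, and Hapln1, a link protein, were at -6.73 and -6.34 in H3.3K36M cells against wild-type. Against control siRNA cells Acan, Sox6 and Hapln1 were at -6.11, -4.70 and -1.12 in H3.3K36M cells. Between the 2 mutant lines only 9 of the 14 genes on this proliferating list passed the filter. Some of the 12 thus passed it through the wild-type libraries, and their fall follows in part from that filter. Of 10 hypertrophic genes, 3 rose and 5 fell in H3.3K36M cells, beside 37.8% of all genes higher and 33.8% lower. Col10a1, the collagen of hypertrophic cartilage, was at -3.76 (-1.65 against control siRNA cells). Panx3, a pannexin channel, was at -4.14 (-3.04 against control siRNA cells). Phex, a mineralisation gene, was at 3.27, which was 0.51 against control siRNA cells. In tumors 6 of 12 hypertrophic genes rose and 2 fell (5 and 5 after quantile normalisation, 6 and 3 without tumor 6). Mmp13, a collagenase, was at 5.37 and Col10a1 at 3.70, and Mmp13 was under the filter in H3.3K36M against control siRNA cells. There 4 of 11 proliferating genes rose and 6 fell, with Col2a1 at -5.53. Over all genes 41.0% were higher and 34.2% lower in tumors. These lists were chosen with results of these data known and are not independent evidence of a direction.

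Genes whose pattern was most like a member were found by Pearson r of log2(normalised count + 1) over the 10 libraries of one table and the 12 of the other, taking the smaller value among 13147 genes. For Ptch1 it was Dclk1 (r = 0.988 and 0.987), for Smo Phkb (0.977 and 0.976), for Gli1 Atg9a (0.942 and 0.901), and for Gli2 Zfp963 (0.914 and 0.900) and Rnase1 (0.908 and 0.902). Gli3 was most like Ahnak (0.947 and 0.955), Pth1r like Drp2 (0.992 and 0.956), Pthlh like Tlr2 (0.932 and 0.968) and Hhip like Ptprh (0.951 and 0.948). These values are descriptions without a p-value, over groups that differ in most genes and over tables that share 4 H3.3 libraries.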

How the data were processed

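RNA-seq was measured in 18 libraries. Per the labels' protocols, RNA was isolated with Trizol and made into TruSeq libraries. Per the submitters' processing notes, Bowtie 1.0.0, RSEM 1.2.12 and the mm9 build were used. The deposited signal is estimated counts per gene divided by a factor for each library, which the authors' file names call median normalised, and it was not read as counts. Values were tested with limma 3.58.1 (R 4.3.3) on log2(value + 1), with eBayes (trend and robust), on genes at 10 or more in as many libraries as the smaller group holds. Cultured groups of a table shared 1 fit (10 or 6 libraries), and tumors were fitted with H3.3K36M cells (8 libraries). Ratios of reads use the recovered value of 1 read in each library, and their intervals are exact at 95%. The fits were tested on simulated data whose changed genes came only from genes well above the filter, so this does not cover Ihh, Hhip or Pthlh.

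The genes named are the 9 members, from each pathway and chondrocyte list the 3 tested genes past the threshold with the largest change in H3.3K36M against wild-type cells, from other comparisons some of the genes that rule gives, and a few further list members (such as Foxd1 in H3.3K36M cells), the last 2 picked after their values were seen, and, except for Ihh, the genes most like each member. The 9 genes and the lists were chosen with earlier results of these data known, and 1 gene of the lists is not reported here. Replicate numbers do not pair libraries: correlations of same-numbered deviations were -0.17 to 0.17. Replicates differed by more than counting noise, and tumor 6 differed from the others most (median chi-square per gene 16.2 to 36.5, against 2.95 to 8.92 among tumors 1 to 5). Alternatives were a pseudocount of 10, no filter, quantile and trimmed-mean scaling, other fits, a replicate block, each library left out, and a change of reference chosen after seeing the data. Plots were drawn in matplotlib 3.10.9, exact intervals came from scipy 1.17.1, and tables were handled in pandas 2.3.3 and numpy 2.4.6 under Python 3.11.15. Coordinates come from GRCm38.p6 and were not joined to the mm9 values.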

Additional observations from a re-analysis of the deposited data

Results flagged for a closer look

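Tumor 6 was the highest of the 6 tumors for Ptch1, Smo and Gli3, with a gap to the next tumor of 0.765, 0.899 and 0.627 of the whole range, above the critical value of 0.625 of Dixon's test. The other 6 genes did not pass it, and chance flags about 1 in 20 groups. Without tumor 6 the log2 fold changes of tumors against cultured cells were -4.69 (Ptch1), -1.09 (Smo) and -2.26 (Gli3), and all 3 still passed.

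The H3.3K36M response differed from the HMT siRNA response in a test of the difference itself for 4 genes. On the log2 scale these differences were 3.38 for Hhip, -1.01 for Gli1, -0.23 for Gli3 and -2.47 for Pth1r (limma adjusted p = 0.00497, 8.79e-07, 0.0115 and 5.31e-08). Hhip entered this fit through the H3.3K36M libraries alone, since it was under the filter in both siRNA groups. The reference lines differ for Gli1 and Pth1r, as the levels of the H3.3 wild-type and control siRNA cells show (422 against 259 and 846 against 63.9 normalised counts).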

How the results depend on the processing

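Counts of changed genes over all genes stayed within 1.5 times their value under each alternative run. With control siRNA cells as the reference, chosen after seeing the data, 4 of the 9 genes changed in H3.3K36M cells in place of 7, and Gli3 (0.11) and Pth1r (0.095) changed sign. Leaving out 1 library at a time gave 6 to 7 changed members for H3.3K36M against wild-type cells, 4 to 6 for HMT siRNA, 3 to 5 for the difference, 7 to 8 for H3.1K36M against wild-type, 4 to 7 for H3.1K36M against H3.3K36M and 5 to 7 for tumors. In the same refits the Gli2 difference between the H3.3K36M and HMT siRNA responses, 0.02, ran from -0.054 to 0.10, and it was -0.01 without H3.3 wild-type replicate 2, -0.054 without H3.3K36M replicate 1, -0.02 without HMT siRNA replicate 2 and -0.0028 without control siRNA replicate 3. The replicate block gave 7, 6, 4, 7, 7 and 8 changed members in these 6 comparisons, against 7, 6, 4, 7, 7 and 6. Libraries of different groups share only a replicate number. Under the block Gli1 (-0.71, limma adjusted p = 0.00197) and Gli2 (-0.39, adjusted p = 0.0214) passed in tumors. The Pthlh difference between the responses passed with a pseudocount of 10 (adjusted p = 0.0084), without the filter (0.0352), after quantile normalisation (0.011), without HMT siRNA replicate 3 (0.0321) and without control siRNA replicate 1 (0.0494) or 3 (0.0402). Hhip and Gli1 lost their call between the mutant lines after quantile normalisation (adjusted p = 0.0889 and 0.307). Hhip also lost it without H3.3K36M replicate 1 (0.0822) or 2 (0.079), and Gli1 without H3.3K36M replicate 1 (0.102). Apart from shifts that come with fewer libraries, the cause was not tested. Depth limits Ihh, Pthlh and Hhip in cultured cells, where 0 to 80 estimated reads per group stand behind a mean.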
